A study of Mus musculus with 18 samples.

Results

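Ccn1, Ccn2, Ankrd1, Nuak2, F3, Axl, Lats2, Amotl2, Ajuba and Tead1 are a set of genes that are read as a transcriptional output of the co-activator YAP and its TEAD partners, together with 1 of those partners. Transcript levels were followed in primary mouse Leydig cells, the steroid-producing cells of the testis, after knockdown of the peroxidase gene Prdx1, an oxidant pulse and the statin fluvastatin. The members were the genes of the deposited count table that carried 1 of these 10 symbols, and each symbol matched a single gene among 55487. The rule used the symbols alone, but the set was proposed with earlier results of these data known, so the counts below describe it and are no independent evidence.

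YAP and its paralogue TAZ are co-activators without a DNA-binding domain of their own. They enter the nucleus, bind TEAD transcription factors and switch on genes of growth, adhesion and matrix remodelling. The Hippo kinases phosphorylate YAP and TAZ and hold them in the cytoplasm, whereas tension in the actin cytoskeleton favours their entry into the nucleus. Statins block the synthesis of mevalonate, from which both cholesterol and isoprenoids are made.

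The 6 groups had 3 libraries each. siprdx1+H2O2+FV cells and siNC+H2O2+FV cells carried the Prdx1 siRNA or the control siRNA, were exposed to 200 µM hydrogen peroxide for 30 min and then received 5 µM fluvastatin for 6 h. The siprdx1+H2O2 and siNC+H2O2 cells had the same pulse and then 0.1% DMSO for 6 h. The siprdx1 and siNC cells had DMSO without the pulse. All cells, controls included, had thus been transfected, and no group had fluvastatin without hydrogen peroxide. The fluvastatin groups have no recorded DMSO. The replicates are labelled as biological, but their animals of origin are not given, so the p-values measure the spread between these samples, which may be partly technical.

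Library totals ranged from 15201530 to 23898435 counts, and the libraries with fluvastatin stood apart from the other 12 on the first principal component, which held 35.8% of the variance. On the third component siprdx1+H2O2 replicate 1 lay furthest out. Prdx1, the targeted gene, averaged 542 ± 20.8 CPM in siprdx1+H2O2+FV cells, against 1500 ± 38.4 CPM in siNC+H2O2+FV cells (SD, n = 3 each). It averaged 524 ± 47.1 CPM in siprdx1+H2O2 cells, against 1630 ± 67.2 CPM in siNC+H2O2 cells, and 464 ± 36.1 CPM in siprdx1 cells, against 1330 ± 42.2 CPM in siNC cells. CPM, here and below, is a gene's count relative to the TMM-scaled total of its library. Of 8 markers of Leydig cells, Cyp11a1 averaged 712 CPM and Star 286 CPM over the 18 libraries, whereas the androgen-synthesis genes Cyp17a1 (0.0318 CPM) and Hsd17b3 (0.067 CPM) were close to 0. Summed markers of fibroblasts reached 15100 to 19700 CPM and those of macrophages 8020 to 10100 CPM, against 986 to 1500 CPM for the Leydig list. These are bulk cultures, in which fewer cells of a type and less RNA per cell cannot be told apart.

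Promoter sequence is shown for 3 members that rose after fluvastatin and for the pair that was lower, so that the TEAD core can be seen in both kinds of member. The windows are the 250 bases before the RefSeq start on GRCm38.p6, 5′ to 3′ on the strand of the gene. They cover chr3:145649986-145650235 on the minus strand for Ccn1, chr19:36119845-36120094 on the minus strand for Ankrd1 and chr3:121723287-121723536 on the plus strand for F3. They cover chr9:102717554-102717803 on the plus strand for Amotl2 and chr14:54577662-54577911 on the minus strand for Ajuba. The windows of Amotl2 and Ankrd1, and both of Lats2, lie inside the gene as GENCODE bounds it, because the RefSeq start used is downstream of the first GENCODE start. Capitals mark the TEAD core GGAATG, also where it lies on the other strand, and in F3 the AP-1 core TGANTCA.
Ccn1: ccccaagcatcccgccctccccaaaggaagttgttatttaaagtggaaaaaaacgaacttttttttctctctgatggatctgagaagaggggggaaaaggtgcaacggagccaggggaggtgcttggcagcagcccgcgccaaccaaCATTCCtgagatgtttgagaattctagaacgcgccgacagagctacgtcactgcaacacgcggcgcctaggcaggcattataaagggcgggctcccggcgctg
Ankrd1: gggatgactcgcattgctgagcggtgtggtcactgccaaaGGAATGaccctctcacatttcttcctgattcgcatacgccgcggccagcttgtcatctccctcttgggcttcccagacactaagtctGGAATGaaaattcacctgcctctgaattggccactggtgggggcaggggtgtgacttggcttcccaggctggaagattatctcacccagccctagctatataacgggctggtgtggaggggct
F3: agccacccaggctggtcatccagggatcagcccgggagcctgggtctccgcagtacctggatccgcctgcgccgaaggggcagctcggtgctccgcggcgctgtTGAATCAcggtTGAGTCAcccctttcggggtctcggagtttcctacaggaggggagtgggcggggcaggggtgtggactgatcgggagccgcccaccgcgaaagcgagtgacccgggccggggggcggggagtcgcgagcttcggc
Amotl2: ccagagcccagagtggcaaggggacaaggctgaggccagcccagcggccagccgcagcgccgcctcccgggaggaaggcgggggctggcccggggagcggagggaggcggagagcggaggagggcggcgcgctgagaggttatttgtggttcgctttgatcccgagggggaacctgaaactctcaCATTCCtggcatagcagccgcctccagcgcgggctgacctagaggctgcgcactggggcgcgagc
Ajuba: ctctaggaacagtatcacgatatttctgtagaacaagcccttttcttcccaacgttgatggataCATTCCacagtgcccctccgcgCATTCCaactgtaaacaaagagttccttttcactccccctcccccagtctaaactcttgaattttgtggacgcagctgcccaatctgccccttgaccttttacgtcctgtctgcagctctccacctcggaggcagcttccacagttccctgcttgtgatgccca

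In these windows GGAATG began 103 bases before the start of Ccn1, 210 and 123 bases before that of Ankrd1, 65 bases before that of Amotl2, and 186 and 164 bases before that of Ajuba. F3 held no GGAATG and had TGANTCA at 146 and 135 bases before its start. RefSeq windows were at hand for 7 of the 10 members, in 8 windows. Of the others, Axl had GGAATG at 233 bases and both windows of Lats2 had no match to any motif searched, on either strand. No member window held a CArG box, the site of serum response factor. Among 32851 windows of the same length, 12.6% held GGAATG, 6.75% held TGANTCA and 1.47% held a CArG box. GGAATG thus stood upstream of members that rose and of members that were lower, and a match is a description of the letters only.

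**Figure D1:**
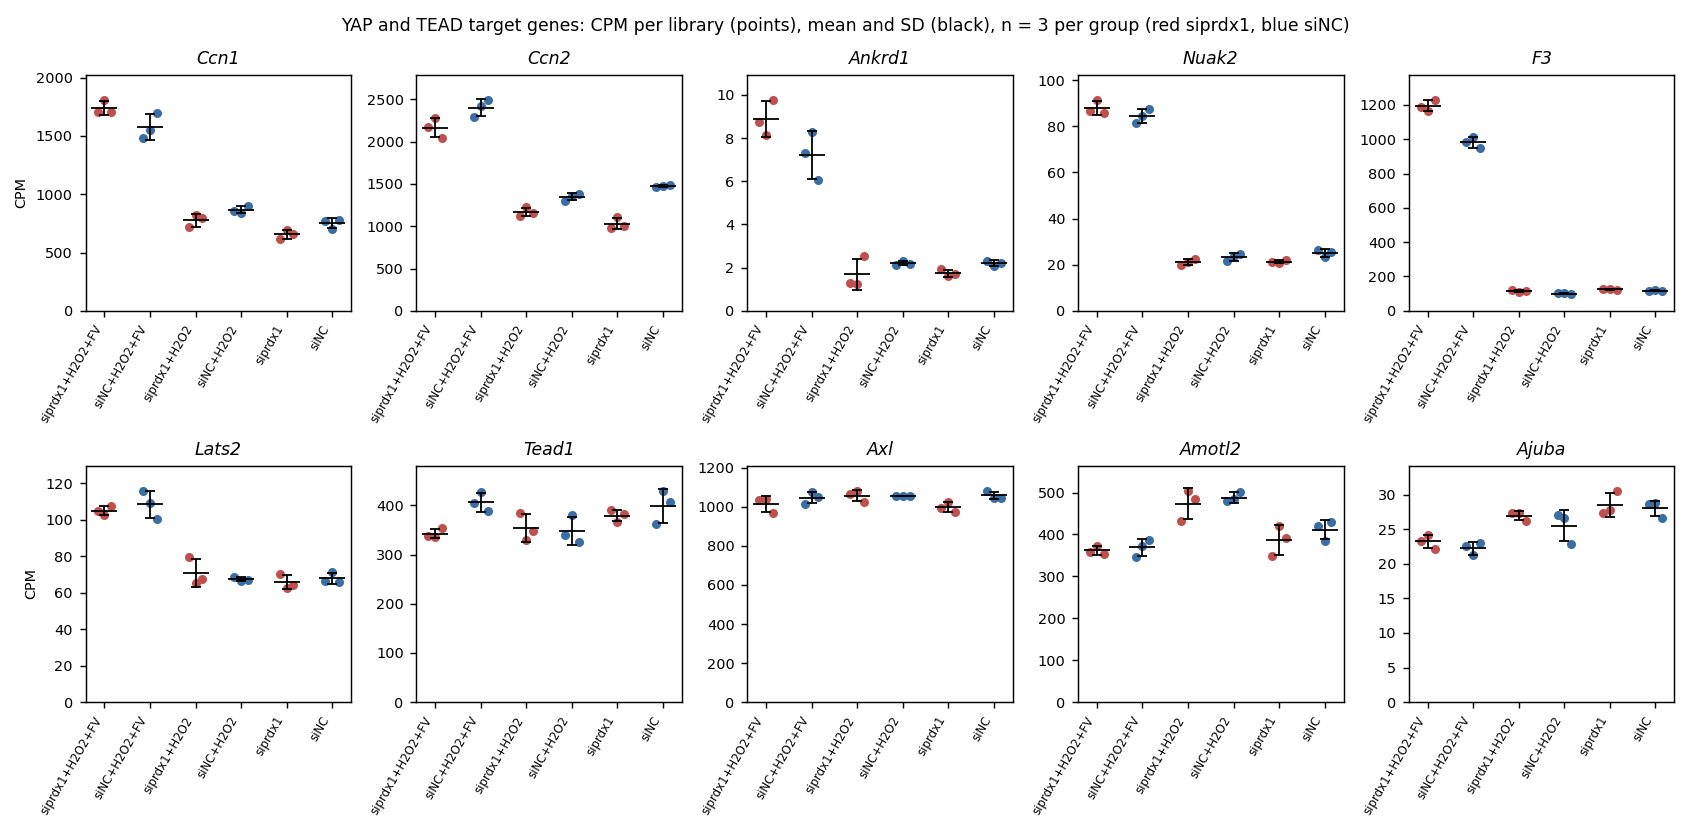
CPM of each of the 10 genes (vertical axes, linear, from 0) in the 6 groups (horizontal axes), with a point per library, red for the Prdx1 siRNA and blue for the control siRNA, and black bars for the mean and SD of 3 libraries. F3 and Nuak2 sit far above their other groups in the 6 fluvastatin libraries, whereas Axl stays between 969 and 1081 CPM in all 18.

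Per kilobase of exon, the level averaged over the 18 libraries was highest for Ccn2 (559 CPM per kb) and Ccn1 (526 CPM per kb), followed by Axl (206) and F3 (174). Amotl2 (66.0), Tead1 (27.4), Lats2 (11.6), Nuak2 (11.2) and Ajuba (7.06) followed, and Ankrd1 was lowest at 1.38 CPM per kb. All 10 passed the filter on low counts, and the smallest count of any member in a library was 26, for Ankrd1. Ccn2 lies at chr10:24595442-24598683 on the plus strand and overlaps the antisense gene Gm15270, which had 10 to 147 counts per library. Lats2, at chr14:57689662-57758388 on the minus strand, shares its strand with the overlapping Gm49361, which had 0 counts in every library. The levels of the 2 CCN genes were therefore more than 10 times those of Lats2, Nuak2 and Ajuba on this per-length scale.

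Fluvastatin after hydrogen peroxide was the step at which most members moved. F3, Nuak2, Ankrd1, Ccn1, Ccn2 and Lats2 rose in both siRNA arms, by 1.48-fold to 10.3-fold, and Amotl2 fell in both. With the Prdx1 siRNA 6 of the 10 rose and 2 fell, where 23.6% of 16432 genes tested passed in either direction (12.6% higher and 11.0% lower). With the control siRNA 7 rose and 1 fell, where 24.9% of genes passed (13.5% higher and 11.3% lower). The median log2 fold change of the members was 0.73 in the siprdx1 arm and 0.76 in the siNC arm, against -0.01 over all genes tested in each. A gene passed at an adjusted p below 0.05 (edgeR quasi-likelihood test, Benjamini-Hochberg over all genes of a comparison). Where libraries are said not to overlap or to be apart, the share of all genes with such a gap is not given. With 3 libraries per group a lack of overlap is thus a description and no test.

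The largest response was that of F3, which encodes tissue factor, the membrane protein that starts the extrinsic clotting cascade (chr3:121723537-121735048, plus strand). F3 had 1188, 1167 and 1230 CPM in siprdx1+H2O2+FV cells, against 121, 110.4 and 117 CPM in siprdx1+H2O2 cells. In the siNC arm it had 984, 1013 and 949 CPM in siNC+H2O2+FV cells, against 102, 103 and 95.2 CPM in siNC+H2O2 cells. The libraries of the groups did not overlap, and the lowest fluvastatin library was several times the highest library without it. The log2 fold change was 3.36 ± 0.05 (SE) with the Prdx1 siRNA, 10.3-fold (edgeR adjusted p = 6.89e-23). With the control siRNA it was 3.29 ± 0.05, 9.81-fold (edgeR adjusted p = 1.9e-22), and F3 ranked 42 and 33 of 16432 genes when all were ordered from the largest rise down.

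Nuak2, a kinase related to AMPK that acts on actomyosin (chr1:132316126-132333488, plus strand), showed the next firmest rise. It had 86.7, 91.5 and 85.9 CPM in siprdx1+H2O2+FV cells, against 19.95, 21.3 and 22.2 CPM in siprdx1+H2O2 cells. It had 81.3, 84.5 and 87.7 CPM in siNC+H2O2+FV cells, against 21.4, 23.7 and 24.7 CPM in siNC+H2O2 cells. All 6 fluvastatin libraries thus lay above all 6 others of this comparison. The rise was 4.16-fold with the Prdx1 siRNA and 3.62-fold with the control siRNA (edgeR adjusted p = 7.8e-17 and 7.45e-16).

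Ankrd1 encodes a cardiac ankyrin repeat protein that is also made in stretched or wounded tissue (chr19:36111961-36120099, minus strand). Its level was low throughout. It had 8.75, 8.12 and 9.77 CPM in siprdx1+H2O2+FV cells, against 1.30, 1.25 and 2.53 CPM in siprdx1+H2O2 cells. It had 7.29, 8.27 and 6.06 CPM in siNC+H2O2+FV cells, against 2.14, 2.33 and 2.16 CPM in siNC+H2O2 cells. The groups did not overlap in either arm, although the third siprdx1+H2O2 library was higher than the other 2 of its group. The log2 fold changes were 2.37 ± 0.19 with the Prdx1 siRNA and 1.70 ± 0.19 with the control siRNA (edgeR adjusted p = 1.53e-09 and 3.98e-07).

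Ccn1 and Ccn2 encode secreted matricellular proteins that bind integrins and are the most widely used readouts of YAP. Ccn1 (chr3:145646976-145649981, minus strand) had 1707, 1810 and 1703 CPM in siprdx1+H2O2+FV cells, against 716, 820 and 793 CPM in siprdx1+H2O2 cells. It had 1480, 1550 and 1698 CPM in siNC+H2O2+FV cells, against 859, 842 and 898 CPM in siNC+H2O2 cells. Each fluvastatin library exceeded every library without it. The rise was 2.24-fold with the Prdx1 siRNA and 1.82-fold with the control siRNA (edgeR adjusted p = 8.88e-13 and 2.27e-10).

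Ccn2 had 2175, 2281 and 2046 CPM in siprdx1+H2O2+FV cells, against 1126, 1224 and 1158 CPM in siprdx1+H2O2 cells. It had 2294, 2423 and 2495 CPM in siNC+H2O2+FV cells, against 1302, 1361 and 1381 CPM in siNC+H2O2 cells. These groups did not overlap either, and within each treatment the control siRNA libraries were the higher ones. The rise was 1.85-fold with the Prdx1 siRNA and 1.78-fold with the control siRNA (edgeR adjusted p = 8.04e-12 and 3.16e-11). Of 3 other CCN genes tested, Ccn5 fell in the siNC arm (log2 fold change -0.24, edgeR adjusted p = 0.00276) and none passed in the siprdx1 arm.

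Among the members that act back on the pathway, Lats2 rose and Amotl2 and Ajuba were lower. Lats2, the Hippo kinase that phosphorylates YAP, had 105, 103 and 108 CPM in siprdx1+H2O2+FV cells, against 79.8, 65.4 and 67.6 CPM in siprdx1+H2O2 cells. It had 116, 109 and 100.5 CPM in siNC+H2O2+FV cells, against 68.5, 66.6 and 67.1 CPM in siNC+H2O2 cells. The groups did not overlap, and the rise was 1.48-fold and 1.61-fold in the siprdx1 and siNC arms (edgeR adjusted p = 1.18e-06 and 7.95e-08).

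Amotl2 encodes a junctional scaffold of the angiomotin family that binds YAP and retains it outside the nucleus (chr9:102716672-102733418, plus strand). It had 359, 374 and 353 CPM in siprdx1+H2O2+FV cells, against 433, 503 and 484 CPM in siprdx1+H2O2 cells. It had 347, 373 and 387 CPM in siNC+H2O2+FV cells, against 479, 483 and 502 CPM in siNC+H2O2 cells. Every fluvastatin library lay below every library without it. The log2 fold change was -0.39 ± 0.07 with the Prdx1 siRNA and -0.40 ± 0.07 with the control siRNA (edgeR adjusted p = 0.000104 and 6.85e-05).

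Ajuba, a LIM protein that inhibits the LATS kinases (chr14:54567472-54577558, minus strand), had 23.4, 24.1 and 22.2 CPM in siprdx1+H2O2+FV cells, against 27.3, 27.3 and 26.2 CPM in siprdx1+H2O2 cells. It had 22.6, 21.2 and 23.0 CPM in siNC+H2O2+FV cells, against 27.1, 26.6 and 22.9 CPM in siNC+H2O2 cells. The groups were apart with the Prdx1 siRNA and overlapped with the control siRNA. The log2 fold change was -0.21 ± 0.07 in the siprdx1 arm (edgeR adjusted p = 0.0405) and -0.19 ± 0.07 in the siNC arm, which did not pass (edgeR adjusted p = 0.0639). The call in the siprdx1 arm was lost on leaving out any 1 library of the comparison, with edgeR adjusted p from 0.0581 to 0.15.

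Tead1 and Axl did not pass in the siprdx1 arm. Tead1, the DNA-binding partner of YAP (chr7:112679318-112906807, plus strand), had 338, 336 and 354 CPM in siprdx1+H2O2+FV cells, against 386, 330 and 349 CPM in siprdx1+H2O2 cells, and these overlapped. It had 405, 427 and 388 CPM in siNC+H2O2+FV cells, against 339.7, 380.5 and 326 CPM in siNC+H2O2 cells, which did not. Its log2 fold change was -0.05 ± 0.07 in the siprdx1 arm (edgeR adjusted p = 0.663) and 0.22 ± 0.07 in the siNC arm (edgeR adjusted p = 0.0183). The siNC call was lost with scaling by library size alone (0.12, edgeR adjusted p = 0.205), with offsets for GC content and length (0.05, edgeR adjusted p = 0.339), and without siNC+H2O2 replicate 1 or 3 or siNC+H2O2+FV replicate 2 (edgeR adjusted p from 0.0732 to 0.113).

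Axl, the receptor tyrosine kinase for the ligand Gas6 (chr7:25757273-25788705, minus strand), had 1038, 1039 and 969 CPM in siprdx1+H2O2+FV cells, against 1067, 1080 and 1027 CPM in siprdx1+H2O2 cells. It had 1016, 1076 and 1052 CPM in siNC+H2O2+FV cells, against 1055, 1056 and 1055 CPM in siNC+H2O2 cells. The groups overlapped in both arms, and the log2 fold changes of -0.06 ± 0.04 and -0.01 ± 0.04 in the siprdx1 and siNC arms did not pass (edgeR adjusted p = 0.394 and 0.9). With scaling by library size alone Axl was called lower in the siprdx1 and siNC arms (-0.16 and -0.11, edgeR adjusted p = 0.00568 and 0.0444). Axl was also the member whose level varied least across the 6 groups, with means from 998 to 1060 CPM.

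**Figure D2:**
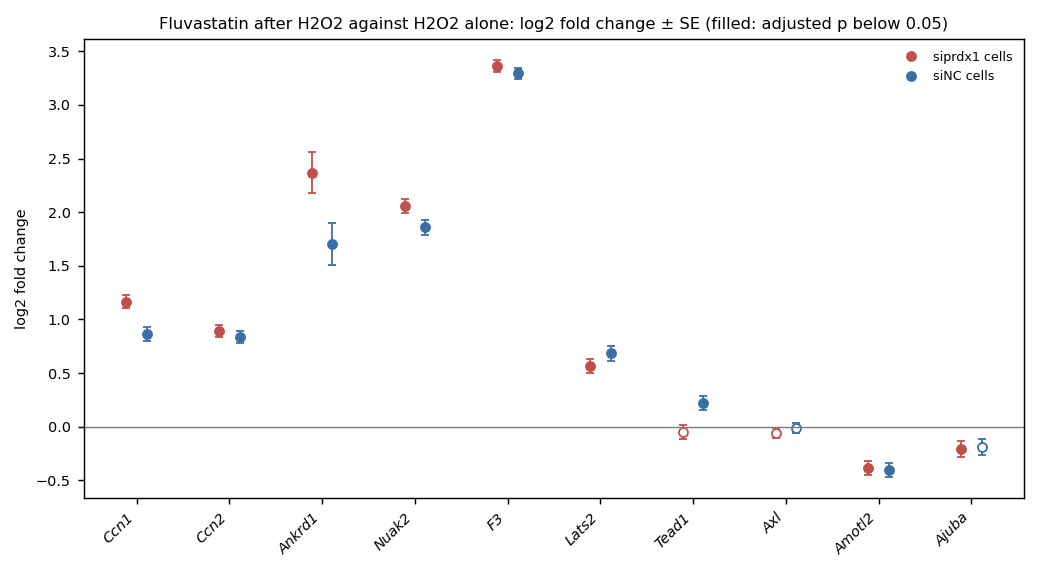
Log2 fold change of each member, fluvastatin after hydrogen peroxide over hydrogen peroxide alone (points, with bars of 1 SE from edgeR), in the siprdx1 and siNC arms, filled where the adjusted p was below 0.05. F3 lies at 3.36 and 3.29, and Amotl2 at -0.39 and -0.40.

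Scaling by library size alone lowered the median of all genes by about 0.10 on the log2 scale in both arms. The 6 rises shared by the arms and the fall of Amotl2 passed under each of the 8 other settings tried in each arm and on leaving out each library in turn.

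Before fluvastatin, hydrogen peroxide alone moved few members and by little. With the Prdx1 siRNA 3 of 10 rose and 0 fell, where 7.87% of genes tested passed in either direction (2.48% higher and 5.39% lower). With the control siRNA 2 rose and 1 fell, where 6.95% of genes passed (2.36% higher and 4.59% lower). The median log2 fold change of the members was 0.04 in the siprdx1 arm and -0.06 in the siNC arm, against 0.02 and 0.01 over all genes tested. Fibroblast markers summed to 17300 to 18600 CPM in siprdx1+H2O2 cells, against 15100 to 15800 CPM in siprdx1 cells, with 3 of 7 called higher (Col3a1 0.31, Dcn 0.22 and Col1a2 0.19 on the log2 scale). Macrophage markers summed to 9460 to 10100 CPM in siNC+H2O2 cells, against 8200 to 9100 CPM in siNC cells, with 2 of 12 called higher. The part of these markers in the members' values was not tested.

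Amotl2 rose in both arms after the pulse. Its libraries with hydrogen peroxide alone are also those against which its fall with fluvastatin was measured, so the 2 comparisons are not independent. It had 433, 503 and 484 CPM in siprdx1+H2O2 cells, against 349, 421 and 392 CPM in siprdx1 cells. It had 479, 483 and 502 CPM in siNC+H2O2 cells, against 419, 385 and 429.5 CPM in siNC cells. The groups did not overlap, and the log2 fold changes were 0.29 ± 0.07 and 0.25 ± 0.07 in the siprdx1 and siNC arms (edgeR adjusted p = 0.00709 and 0.0241).

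Ccn1 also rose in both arms. It had 716, 820 and 793 CPM in siprdx1+H2O2 cells, against 616, 695 and 662 CPM in siprdx1 cells. It had 859, 842 and 898 CPM in siNC+H2O2 cells, against 773, 703 and 777 CPM in siNC cells. The groups did not overlap, by a narrow margin in the siprdx1 arm, and the log2 fold changes were 0.24 ± 0.06 and 0.21 ± 0.06 in the siprdx1 and siNC arms (edgeR adjusted p = 0.0171 and 0.0456).

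Ccn2 and F3 each passed in 1 arm. Ccn2 had 1126, 1224 and 1158 CPM in siprdx1+H2O2 cells, against 984, 1104 and 1008 CPM in siprdx1 cells, a log2 fold change of 0.18 ± 0.05 (edgeR adjusted p = 0.0399). In the siNC arm it had 1302, 1361 and 1381 CPM in siNC+H2O2 cells, against 1469, 1474 and 1491 CPM in siNC cells, a difference of -0.13 ± 0.05 that did not pass (edgeR adjusted p = 0.144). It was called lower there with GC and length offsets (-0.17, edgeR adjusted p = 0.0457) and with these and the replicate block (-0.17, edgeR adjusted p = 0.000588). The Ccn2 libraries were thus apart in both arms and in opposite directions. The difference between the arms was 0.31 ± 0.08, which did not pass (edgeR adjusted p = 0.123), although DESeq2, the fit without a low-count filter, the replicate block and the GC and length offsets put it at adjusted p of 0.0162, 0.00755, 0.0448 and 0.0268.

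F3 had 102, 103 and 95.2 CPM in siNC+H2O2 cells, against 115, 121 and 117 CPM in siNC cells, and these did not overlap. It fell there by 0.23 on the log2 scale (edgeR adjusted p = 0.00546). It had 121, 110.4 and 117 CPM in siprdx1+H2O2 cells, against 128, 126 and 122 CPM in siprdx1 cells, a difference of -0.11 that did not pass (edgeR adjusted p = 0.216). These libraries did not overlap either, by a narrow margin. With GC and length offsets F3 was called lower in this arm too (-0.15, edgeR adjusted p = 0.00463). The difference of F3 between the arms, 0.12 ± 0.07, did not pass (edgeR adjusted p = 0.913). The remaining members, Ankrd1, Nuak2, Lats2, Tead1, Axl and Ajuba, did not pass in either arm, with log2 fold changes from -0.20 (Tead1 in the siNC arm) to 0.11 (Lats2 in the siprdx1 arm).

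Most of these calls were lost when a library was left out. Without any 1 library of the comparison the adjusted p of Ccn1 in the siNC arm reached 0.0564 to 0.21, and 4 of 6 such fits lost the calls of Ccn1 and of Ccn2 in the siprdx1 arm and of Amotl2 in the siNC arm. F3 was lost without siNC+H2O2 replicate 3 (edgeR adjusted p = 0.0518), and Amotl2 in the siprdx1 arm without siprdx1 replicate 1 (edgeR adjusted p = 0.061).

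**Figure D3:**
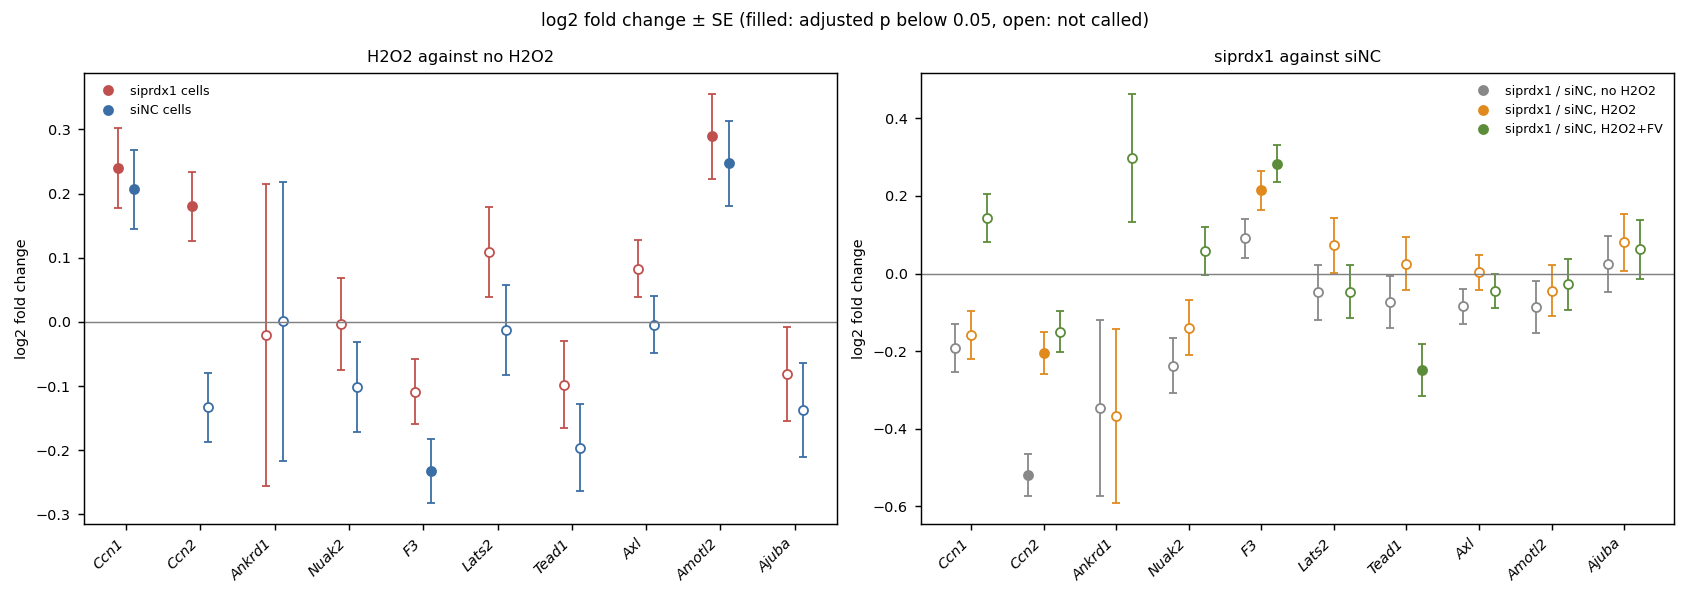
Log2 fold change of each member (points, with bars of 1 SE from edgeR) for hydrogen peroxide over no pulse in the siprdx1 and siNC arms, and for the Prdx1 siRNA over the control siRNA in each of the 3 treatments, filled where the adjusted p was below 0.05. All points lie within 0.5 of 0 except Ccn2, at -0.52 for knockdown without the pulse.

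Set against cells that had neither agent, the combined treatment left 6 of 10 members higher and 1 lower in each arm, where 25.5% of genes tested passed with the Prdx1 siRNA (12.7% higher and 12.9% lower) and 23.0% with the control siRNA (11.3% higher and 11.6% lower). These comparisons share libraries with those above. F3 stood 3.25 ± 0.05 and 3.06 ± 0.05 higher on the log2 scale in the siprdx1 and siNC arms, Nuak2 2.05 ± 0.07 and 1.76 ± 0.07, and Ankrd1 2.35 ± 0.20 and 1.70 ± 0.19. Ccn1 stood 1.40 ± 0.06 and 1.07 ± 0.06 higher, Ccn2 1.07 ± 0.05 and 0.70 ± 0.05, and Lats2 0.67 ± 0.07 in each arm. Ajuba was the member that was lower, at -0.29 ± 0.07 and -0.33 ± 0.07 (edgeR adjusted p = 0.00484 and 0.00173). Amotl2 did not pass over both steps, at -0.10 ± 0.07 and -0.16 ± 0.07 (edgeR adjusted p = 0.309 and 0.0953). It was called lower in the siprdx1 and siNC arms with GC and length offsets (edgeR adjusted p = 0.0197 and 0.0264) and with library size alone (edgeR adjusted p = 0.00695 and 0.00236), and in the siNC arm without siNC replicate 2 (edgeR adjusted p = 0.0475).

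Knockdown of Prdx1 by itself lowered Ccn2. Without the pulse, Ccn2 had 984, 1104 and 1008 CPM in siprdx1 cells, against 1469, 1474 and 1491 CPM in siNC cells, and the groups lay far apart. It was 0.698 times the level in siNC cells, a log2 fold change of -0.52 ± 0.05 (edgeR adjusted p = 2.2e-06). This call held in each setting and each fit without 1 library, with adjusted p up to 0.000294. It was the single member called, where 2.33% of genes tested passed (0.657% higher and 1.67% lower).

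No other member passed without the pulse. Nuak2 had 20.9, 20.8 and 22.01 CPM in siprdx1 cells, against 26.4, 23.3 and 25.4 CPM in siNC cells, and Ccn1 had 616, 695 and 662 CPM in siprdx1 cells, against 773, 703 and 777 CPM in siNC cells. Neither overlapped between the groups, and neither passed (log2 fold changes -0.24 and -0.19, edgeR adjusted p = 0.0926 and 0.138). With GC and length offsets both were called lower (edgeR adjusted p = 0.027 for Nuak2 and 0.000664 for Ccn1), and Ccn1 also without a low-count filter (edgeR adjusted p = 0.0294). The Ankrd1 and Axl libraries of siprdx1 cells also lay below all those of siNC cells (-0.35 and -0.08). Those of F3 lay above them (0.09). None of these passed (edgeR adjusted p = 0.653, 0.512 and 0.543 for Ankrd1, Axl and F3). The share of all genes with such gaps is not given, so the gaps of members that did not pass are no sign of a shift. Fibroblast markers summed to 15100 to 15800 CPM in siprdx1 cells, against 17900 to 18900 CPM in siNC cells. Of the smooth muscle markers 3 of 6 fell, among them the actin gene Acta2 (log2 fold change -0.34). The part of these cells in the lower Ccn2 was not tested.

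After hydrogen peroxide Ccn2 was again lower and F3 was higher. Ccn2 had 1126, 1224 and 1158 CPM in siprdx1+H2O2 cells, against 1302, 1361 and 1381 CPM in siNC+H2O2 cells, a log2 fold change of -0.21 ± 0.05 (edgeR adjusted p = 0.0395). F3 had 121, 110.4 and 117 CPM in siprdx1+H2O2 cells, against 102, 103 and 95.2 CPM in siNC+H2O2 cells, a log2 fold change of 0.21 ± 0.05 (edgeR adjusted p = 0.0185). Neither gene overlapped between the groups. These were the 2 members called, where 2.73% of genes tested passed (0.901% higher and 1.83% lower), and 5 of 6 fits without 1 library lost the call of Ccn2 and 4 of 6 that of F3.

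After fluvastatin F3 was again higher and Tead1 was lower. F3 had 1188, 1167 and 1230 CPM in siprdx1+H2O2+FV cells, against 984, 1013 and 949 CPM in siNC+H2O2+FV cells, a log2 fold change of 0.28 ± 0.05 (edgeR adjusted p = 0.000739). This call held under every setting tried and without any 1 library. Tead1 had 338, 336 and 354 CPM in siprdx1+H2O2+FV cells, against 405, 427 and 388 CPM in siNC+H2O2+FV cells, a log2 fold change of -0.25 ± 0.07 (edgeR adjusted p = 0.04). Neither gene overlapped between the groups. These were again 2 members of 10, where 3.97% of genes tested passed (1.62% higher and 2.35% lower). The Tead1 call was lost in 5 of 6 fits without 1 library, with scaling by library size alone (edgeR adjusted p = 0.0679) and with GC and length offsets (log2 fold change -0.10, edgeR adjusted p = 0.104). Fibroblast markers summed to 15800 to 16500 CPM in siprdx1+H2O2+FV cells, against 18300 to 19000 CPM in siNC+H2O2+FV cells, with Col3a1 (-0.33) and Col1a2 (-0.23) called lower. Their part in these values was not tested.

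Whether the siRNA changed the response itself was tested as the difference between the arms, siprdx1 minus siNC. For the response to fluvastatin 0 of 10 members passed in edgeR, where 0.651% of genes tested did (0.463% higher and 0.189% lower). At an unadjusted p below 0.05, Ccn1 (0.30 ± 0.09), Ankrd1 (0.67 ± 0.28), Nuak2 (0.20 ± 0.09) and Tead1 (-0.27 ± 0.10) differed, with adjusted p of 0.142, 0.32, 0.38 and 0.227 in edgeR, and DESeq2 called 0 as well. Ccn1 was called with GC and length offsets (0.20, edgeR adjusted p = 0.0225) and without a low-count filter (0.30, edgeR adjusted p = 0.0139). For the response to hydrogen peroxide 0 of 10 passed in edgeR, where 0.243% of genes did (0.0426% higher and 0.201% lower), and Ccn2 alone had an unadjusted p below 0.05, while DESeq2 called 1. For the combined treatment Ccn2 passed, at 0.37 ± 0.08 (edgeR adjusted p = 0.048), where 0.152% of genes tested passed (0.146% higher and 0.00609% lower). This call was lost in 9 of 12 fits without 1 library. In all, 5 of 10 members had an unadjusted p below 0.05 here. Besides Ccn2 they were Ccn1 (0.33 ± 0.09), Ankrd1 (0.65 ± 0.28), Nuak2 (0.30 ± 0.09) and F3 (0.19 ± 0.07). Their adjusted p in edgeR was 0.28, 0.797, 0.539 and 0.665. Ccn1 was called without a low-count filter (0.34, edgeR adjusted p = 0.00733) and with GC and length offsets (0.26, edgeR adjusted p = 0.00421). Ccn2 rose more over its own siRNA control with the Prdx1 siRNA (1.07) than with the control siRNA (0.70), from a lower level in siprdx1 cells.

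Genes around the members were followed in lists of the pathway's parts. After fluvastatin 12.6% of all genes tested were higher and 11.0% lower with the Prdx1 siRNA, and 13.5% and 11.3% with the control siRNA. Of 14 other genes of published YAP and TAZ signatures, 6 rose and 1 fell after fluvastatin with the Prdx1 siRNA, and 8 rose and 0 fell with the control siRNA. Their median log2 fold change was -0.01 in the siprdx1 arm and 0.23 in the siNC arm, against -0.01 over all genes in each. Fjx1, a secreted regulator of planar polarity, rose by 0.97 ± 0.15 and 1.02 ± 0.16 in the siprdx1 and siNC arms (edgeR adjusted p = 3.49e-05 and 4.88e-05). The growth-arrest gene Gadd45a rose by 0.61 ± 0.07 and 0.68 ± 0.07 (edgeR adjusted p = 7.24e-07 and 2.72e-07). The phosphatase gene Ptpn14 averaged 40.5 CPM in siprdx1+H2O2+FV cells, against 43.3 CPM in siprdx1+H2O2 cells, and 50.2 CPM in siNC+H2O2+FV cells, against 39.1 CPM in siNC+H2O2 cells. Its response differed between the arms by -0.46 ± 0.09 (edgeR adjusted p = 0.0166).

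Of 9 YAP, TAZ, TEAD and VGLL genes besides Tead1, 7 could be tested, and Vgll1 and Vgll2 had no reads. Wwtr1, which encodes TAZ, rose by 0.18 ± 0.06 and 0.39 ± 0.06 on the log2 scale after fluvastatin in the siprdx1 and siNC arms (edgeR adjusted p = 0.0231 and 1.59e-05). Yap1 had 143 CPM in siprdx1+H2O2+FV cells, against 160.0 CPM in siprdx1+H2O2 cells (-0.16 ± 0.05, edgeR adjusted p = 0.0285), and 152 CPM in both siNC groups of this comparison. In the siprdx1 arm the Yap1 call was lost in 4 of 6 fits without 1 library (edgeR adjusted p up to 0.151) and that of Wwtr1 in 3 of 6, and each in 2 of 8 other settings (edgeR adjusted p up to 0.111 and 0.327). The co-factor gene Vgll3 rose with the control siRNA (0.34 ± 0.08, edgeR adjusted p = 0.00224). No gene of this list passed after hydrogen peroxide in either arm.

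Of 14 Hippo kinases and their activators 2 rose with the Prdx1 siRNA and 6 with the control siRNA after fluvastatin, and none fell. The share in the siprdx1 arm was close to the 12.6% of all genes that were higher there. The FERM protein gene Frmd6 (0.27 ± 0.05 and 0.42 ± 0.05) and the kinase gene Taok1 (0.30 ± 0.10 and 0.57 ± 0.10) passed in both arms, and Lats1 passed with the control siRNA (0.40 ± 0.08). The Taok1 call in the siprdx1 arm was lost in 4 of 6 fits without 1 library (edgeR adjusted p up to 0.14) and with library size alone (edgeR adjusted p = 0.144). Of 9 angiomotins, AJUBA relatives and junction genes, 0 rose and 3 fell in the siprdx1 arm, and 2 rose and 1 fell in the siNC arm, where 13.5% of all genes were higher and 11.3% lower. Amotl1, a relative of Amotl2, fell in both (-0.32 ± 0.06 and -0.18 ± 0.06, edgeR adjusted p = 0.000126 and 0.0201), and its siNC call was lost in 3 of 6 fits without 1 library. Tjp1, which encodes the junction protein ZO-1, fell in the siprdx1 arm (-0.18 ± 0.05) and rose in the siNC arm (0.17 ± 0.05), and the difference of -0.35 ± 0.07 passed (edgeR adjusted p = 0.0239). Each arm's own call was lost in 4 of 6 fits without 1 library, and the siNC rise also in 3 of 8 other settings, with 0.05 (edgeR adjusted p = 0.409) under GC and length offsets.

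**Figure D4:**
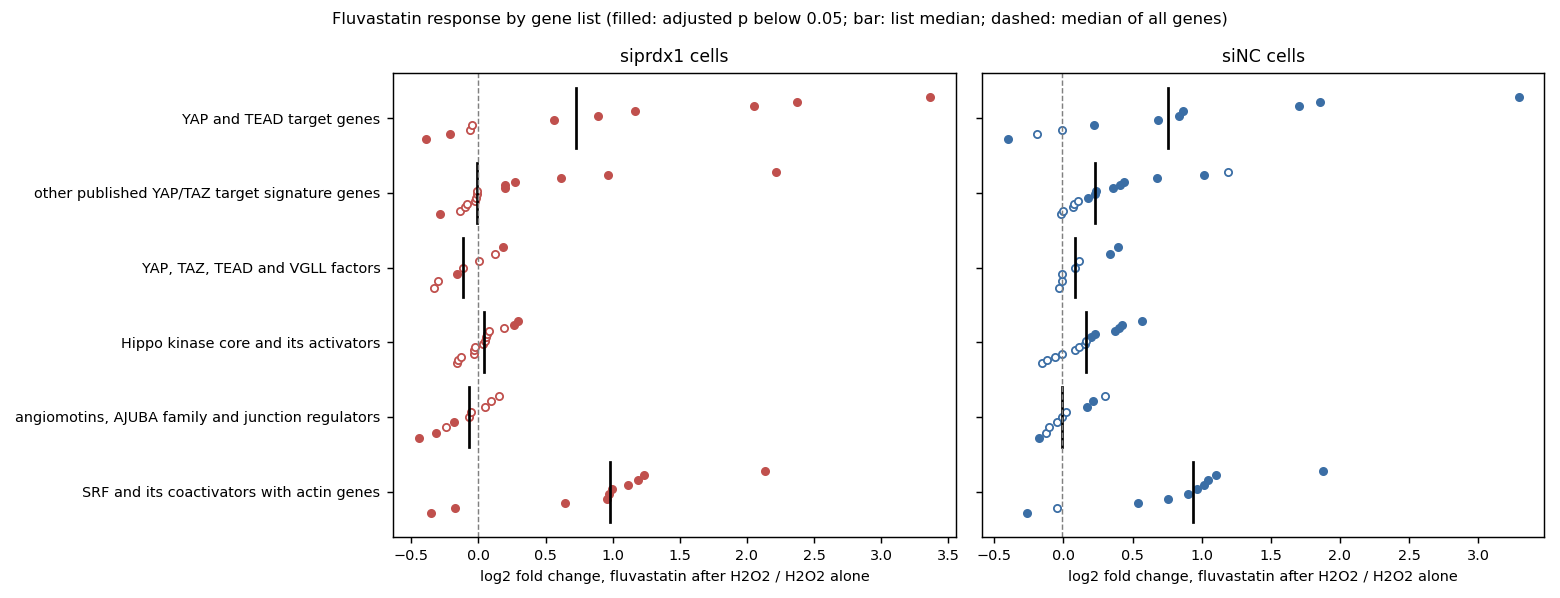
Log2 fold change of the tested genes of each pathway list (points), fluvastatin after hydrogen peroxide over hydrogen peroxide alone, in the siprdx1 and siNC arms, filled where the adjusted p was below 0.05, with a bar at the list's median and a dashed line at the median of all genes tested. The SRF and actin genes have medians of 0.98 and 0.94, and the Hippo kinase list medians of 0.04 and 0.16.

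Of 10 genes of serum response factor, its coactivators and actin, 8 rose in each arm after fluvastatin. Of all genes tested, 12.6% were higher and 11.0% lower in the siprdx1 arm, and 13.5% and 11.3% in the siNC arm. The medians of the list were 0.98 and 0.94 in the siprdx1 and siNC arms, against -0.01 over all genes. Srf itself rose by 2.13 ± 0.09 and 1.88 ± 0.09 (edgeR adjusted p = 1.48e-14 and 2.27e-13), and Actg1, a cytoplasmic actin gene, by 1.19 ± 0.14 and 0.97 ± 0.14. Mrtfa, a coactivator gene chosen after its values were seen, fell by 0.35 and 0.26 on the log2 scale. The coactivator gene Mrtfb was also called lower in the siprdx1 arm, with 57.9 CPM in siprdx1+H2O2+FV cells, against 65.4 CPM in siprdx1+H2O2 cells. In the siNC arm Mrtfb did not pass (65.5 CPM against 67.7 CPM). Markers of smooth muscle and peritubular myoid cells rose as well, with 5 of 6 higher in each arm. They summed to 2100 to 2350 CPM in siprdx1+H2O2+FV cells, against 1100 to 1250 CPM in siprdx1+H2O2 cells, and to 2420 to 2570 CPM in siNC+H2O2+FV cells, against 1320 to 1410 CPM in siNC+H2O2 cells. None of these markers was at 0, Acta2 and Tagln are in both lists, and the markers' part in the members' response was not tested. Macrophage markers summed to 8680 to 9110 CPM in siprdx1+H2O2+FV cells, against 8340 to 8550 CPM in siprdx1+H2O2 cells, and to 8320 to 8420 CPM in siNC+H2O2+FV cells, against 9460 to 10100 CPM in siNC+H2O2 cells. Fibroblast markers summed to 15800 to 16500 CPM in siprdx1+H2O2+FV cells, against 17300 to 18600 CPM in siprdx1+H2O2 cells, and to 18300 to 19000 CPM in siNC+H2O2+FV cells, against 19000 to 19700 CPM in siNC+H2O2 cells, and Pdgfra was lower in both arms (-0.60 and -0.34). Leydig cell markers summed to 1330 to 1340 CPM in siprdx1+H2O2+FV cells, against 986 to 1050 CPM in siprdx1+H2O2 cells. In the siNC arm they summed to 1440 to 1500 CPM in siNC+H2O2+FV cells, against 1160 to 1180 CPM in siNC+H2O2 cells. Of 6 Leydig markers tested, 2 rose and 1 fell in the siprdx1 arm, and 1 rose and 2 fell in the siNC arm. Star was higher by 1.40 and 1.34 on the log2 scale, from means of 173 to 458 CPM and of 198 to 502 CPM. Most of the rise in the sums was that of Star, whereas Nr5a1 was lower in both arms (-0.43 and -0.36). Of 5 Sertoli cell markers tested, 2 rose and 2 fell in the siprdx1 arm, and 2 rose and 1 fell in the siNC arm. Sox9 was higher by 1.497 and 1.302 in the siprdx1 and siNC arms. Wt1 was called lower in the siprdx1 arm (-0.42), and Cldn11 was called lower in both arms. Cldn11 averaged 36 CPM in siprdx1+H2O2+FV cells, against 46.8 CPM in siprdx1+H2O2 cells, and its log2 fold change in the siNC arm was -0.35. The part of these markers was not tested either. Of the smooth muscle markers, the 1 that did not pass, the muscle intermediate filament gene Des, had log2 fold changes of 0.01 and -0.08.

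The genes whose pattern over the 18 libraries was most like each member's were found by Pearson's r of log2 CPM among 12607 genes. The libraries form a group with fluvastatin and a group without it, so r mostly describes that shared step and carries no p. Among the nearest to Nuak2 were Thbs1 (r = 0.9974) and Palld, and F3 was followed by Egr3 (0.9972), Errfi1 and Fermt2. Ccn1 was followed by Gadd45g (0.9962), Epha2 and Midn, and Lats2 by Azin1 (0.993), Suco and Tmem41b. Ccn2 was nearest to Acta2 (0.9808), Heyl and Tagln, and Ankrd1 to Pfkfb3 (0.9748), Ankrd33b and the member Nuak2. Amotl2 (Mepce, 0.9566), Tead1 (Pcm1, 0.9445), Ajuba (Ankrd35, 0.9015) and Axl (Fkbp10, 0.8355) had looser neighbours. The 6 members that rose after fluvastatin in both arms had closer first neighbours than the other 4. As 3876 and 4090 genes passed at that step in the siprdx1 and siNC arms, this is no separate result about the members.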

How the data were processed

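Polyadenylated RNA of 18 libraries was sequenced with a stranded kit, per the labels' protocols. The deposited table holds whole-number counts per gene, made by the authors with HISAT2 and HTSeq on mm10, per the submitters' processing notes. Tool versions, annotation and strand setting are not given in the sources used here, so reads of Ccn2 and its antisense neighbour may not be separable.

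The 10 members and all gene lists were chosen with earlier results of these data known. 1 further list and 1 neighbour gene are not reported here. Genes named from the other lists are, per comparison, up to 3 of largest absolute log2 fold change among those called, and neighbours are the 3 genes of highest r averaging at least 1 CPM (prior count 2). Counts were filtered with filterByExpr, scaled by TMM and fitted with edgeR 4.0.16 in R 4.3.3 (quasi-likelihood, robust, all 18 libraries, 12 residual degrees of freedom), which left 16432 genes. Adjusted p-values are Benjamini-Hochberg over all genes of a comparison, with 0.05 as threshold. limma 3.58.1 (voom), DESeq2 1.42.0, RLE size factors, library size alone, no filter, a replicate block, the compared groups alone and leaving out each library were tried, and GC and length offsets were an addition made on seeing the data. GC content and length explained an uneven share of each library's deviation from the mean over libraries. This share ran from 0.83% in siNC+H2O2 replicate 2 to 20.3% in siprdx1+H2O2 replicate 2. The fitting was tested on simulated data. Library totals of 15201530 to 23898435 set the precision. Gene coordinates are from GENCODE vM21 on GRCm38, where 55227 of 55487 identifiers were found, and promoters are from RefSeq. No replicates were copies of each other: chi-square per degree of freedom was 2.74 to 17.1 between replicates. Same-numbered libraries deviated together, with r above 0.1 in each pair, for hydrogen peroxide in the siNC arm alone (0.135, 0.135 and 0.118), and the numbers come from the labels. These r were small, and a single pair elsewhere reached 0.256 (replicate 2, hydrogen peroxide in the siprdx1 arm).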

Additional observations from a re-analysis of the deposited data

Results flagged for a closer look

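For the members and the pathway lists, 3 differences in response between the siRNA arms passed edgeR's test of the difference itself. They are given here as siprdx1 minus siNC on the log2 scale. Their causes were not tested. Ptpn14, a phosphatase gene, differed by -0.455 at the fluvastatin step (-0.10 and 0.36 in the siprdx1 and siNC arms, edgeR adjusted p = 0.0166), a call lost in 4 of 12 fits without 1 library. Tjp1, which encodes ZO-1, differed by -0.352 at the same step (-0.18 and 0.17, edgeR adjusted p = 0.0239), lost in 9 of 12. Ccn2 differed by 0.369 over the combined treatment (1.07 and 0.70, edgeR adjusted p = 0.048), lost in 9 of 12, and its adjusted p ranged from 0.000457 to 0.0965 over the other settings. Among the cell type markers, the fibroblast gene Pdgfra also differed, by -0.269 at the fluvastatin step (-0.60 and -0.34, edgeR adjusted p = 0.0413). The Pdgfra call was not tried under other settings, and its cause was not tested.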

How the results depend on the processing

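Values stand with the reported one in brackets, log2 values with 3 decimals. The cause of each shift was not tested. With DESeq2, 1 member was lower after fluvastatin in the siprdx1 arm [2], and the differences between arms had 69 genes for hydrogen peroxide [40] with 1 member higher [0], 206 for fluvastatin [107] and 46 for the combined treatment [25], where Lats2 was -0.003 [0.002]. RLE size factors left 0 members higher in the combined difference [1], with Lats2 at -0.003.

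Offsets for GC content and length gave 2544 genes for hydrogen peroxide in the siprdx1 arm [1293] with 1 member lower [0]. In the siNC arm 2 members were lower [1], with Ankrd1 at -0.052 [0.001], Axl at 0.016 [-0.005] and Lats2 at 0.036 [-0.012]. Axl was 0.018 for fluvastatin [-0.010] and 0.034 for the combined treatment [-0.015] in the siNC arm, and 2 members were lower for the combined treatment in each arm [1]. Knockdown had 891 genes without the pulse [383] with 3 members lower [1], 1393 after it [448] with 2 lower [1] and Tead1 at -0.007 [0.026], and 1097 after fluvastatin [652] with Ajuba at -0.009 [0.062]. The differences between arms had 202 [40], 334 [107] and 80 genes [25] for hydrogen peroxide, fluvastatin and both, with 1, 1 and 2 members higher [0, 0, 1]. Ankrd1 was 0.003 [-0.021] in the first, Amotl2 -0.044 [0.016] in the second, and Amotl2 -0.004 [0.058], Ajuba -0.058 [0.038] and Axl -0.004 [0.040] in the third.

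The replicate block paired the libraries for hydrogen peroxide in the siNC arm, where Ankrd1 was -0.001. The block and offsets together were tried for that comparison alone, which had 1834 genes [1142], 2 members lower, Ankrd1 at -0.055, Axl at 0.016 and Lats2 at 0.036. For the difference between arms after hydrogen peroxide the block gave 1 member higher [0].

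With only the compared groups fitted, hydrogen peroxide had 638 genes in the siprdx1 arm [1293] with 0 members higher [3], and Ankrd1 was -0.001 in the siNC arm. In the siprdx1 arm 1 member was lower after fluvastatin [2] and 2 after both [1]. Knockdown had 193 genes without the pulse [383], and 183 after it [448] with 0 members higher [1] and 0 lower [1] and Axl at 0. The differences between arms had 24 genes for hydrogen peroxide [40] and 0 members higher for both steps [1].

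Library size alone moved the median of all genes for fluvastatin to -0.108 in the siprdx1 arm [-0.006] and -0.114 in the siNC arm [-0.011], and the split of higher and lower genes to 1463 and 3634 [2066 and 1810] and to 1474 and 3835 [2226 and 1864]. For both steps it moved the split to 1153 and 4503 in the siprdx1 arm [2079 and 2114] and to 1170 and 4003 in the siNC arm [1862 and 1913]. Hydrogen peroxide in the siprdx1 arm split 234 and 1132 [407 and 886]. Knockdown split 163 and 199 without the pulse [108 and 275] and 311 and 302 after fluvastatin [266 and 386]. Members lower were 3 for fluvastatin and 3 for both in the siNC arm [1 each], 4 for both in the siprdx1 arm [1], and 0 for knockdown after hydrogen peroxide and after fluvastatin [1 each]. Hydrogen peroxide in the siNC arm had 1 member higher [2] and Ankrd1 at -0.016. For both steps Axl was -0.115 in the siprdx1 arm [0.025] and Tead1 -0.094 in the siNC arm [0.027], and the combined difference had 0 members higher [1] and Lats2 at -0.017.

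Without a low-count filter, members lower were 2 for hydrogen peroxide in the siNC arm [1] with Ankrd1 at 0, 1 for fluvastatin in the siprdx1 arm [2] and 2 for knockdown without the pulse [1]. Nuak2 was 0.001 after hydrogen peroxide in the siprdx1 arm [-0.003]. The differences between arms had 97 [40], 281 [107] and 56 genes [25], with 1, 1 and 2 members higher [0, 0, 1].

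Leaving out each library in turn gave these ranges. For fluvastatin in the siNC arm Axl was -0.026 to 0.015 with 1 to 2 members lower, and in the siprdx1 arm Tead1 was -0.101 to 0.016 with 1 lower [2]. For hydrogen peroxide in the siNC arm 646 to 1155 genes passed, with 0 to 1 members higher [2], 0 to 2 lower [1], Ankrd1 -0.049 to 0.037, Axl -0.013 to 0.007 and Lats2 -0.034 to 0.025. In the siprdx1 arm 817 to 1256 genes passed, with 0 to 3 members higher [3], Ankrd1 -0.445 to 0.172 and Nuak2 -0.041 to 0.034. For both steps in the siNC arm Axl was -0.032 to 0.009 and Tead1 -0.039 to 0.084, with 1 to 2 members lower. Knockdown had 204 to 344 genes without the pulse [383] with Ajuba -0.024 to 0.055. After the pulse it had 227 to 457 [448] with 0 to 1 members higher, 0 to 1 lower, Amotl2 -0.089 to 0.016, Axl -0.011 to 0.025, Lats2 -0.018 to 0.128 and Tead1 -0.038 to 0.096. After fluvastatin it had 320 to 632 [652] with 0 to 1 members lower, Amotl2 -0.070 to 0.008 and Lats2 -0.098 to 0.003. The difference for hydrogen peroxide had 26 to 54 genes and 0 to 1 members higher, with Ajuba -0.019 to 0.105, Amotl2 -0.027 to 0.107, Ankrd1 -0.447 to 0.171 and Ccn1 -0.011 to 0.087. That for fluvastatin had 55 to 136 genes, with Ajuba -0.063 to 0.057 and Amotl2 -0.044 to 0.062. That for both had 16 to 26 genes and 0 to 1 members higher, with Amotl2 -0.011 to 0.123 and Lats2 -0.050 to 0.052.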
